A study of Mus musculus with 38 samples.

Results

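The soleus muscle of mice that had been fed again after fasting-induced torpor (Post 5 to Post 7) was compared with that of mice sampled while fasted (Mid 9 to Mid 13) in the second, independent set of mice of the study (experiment #2). These 8 libraries were taken by their titles and their run label from the 38 libraries of the series. All 10819 promoter clusters of the deposited table were kept for them. All mice were C57BL/6J males, an inbred strain that enters torpor when food is withdrawn in the cool, and each gave 1 library from 1 or both soleus muscles, so that every value comes from a different mouse. The Pre mice were sampled on day 1 with food, the Mid mice on day 2 after food had been withdrawn, and the Post mice on day 3 after food had been returned. All groups of the first set of mice were sampled at the same time of day, and the second set repeated that design. The labels call the Pre mice controls, the Mid mice torpid and the Post mice recovering, and they name no altered allele and no drug in any of these groups. The metabolic state of each mouse at sampling is not in the labels, and food and recovery from torpor changed together between the Mid and Post groups, so they cannot be told apart here. The 2 Pre libraries of experiment #2 (Pre 5 and Pre 6) entered the fit only to share its estimate of the spread and for a comparison given at the end, and the 8 Mid and 4 Post libraries of the first set (experiment #1) are given beside the results.

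The soleus lies deep in the calf, holds posture and is rich in oxidative fibers, in the mouse a mix of slow and fast ones. A fasted muscle burns fatty acids, keeps pyruvate out of the mitochondria by phosphorylating the pyruvate dehydrogenase complex, and degrades protein through FOXO-driven ubiquitin ligases and autophagy. Feeding raises insulin, which holds FOXO factors outside the nucleus and, with SREBP-1 and its partners, favors lipid synthesis, while circulating glucocorticoids, which are high during fasting, fall. Many genes start transcription at several promoters, and CAGE (cap analysis of gene expression) separates these, because it sequences only the capped 5′ ends of RNA. Each tag is thus taken as a start of transcription, and a cluster of tags is treated here as a promoter.

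Tags in clusters numbered between 9359994 and 20311645 in the Mid libraries and between 9534972 and 20914855 in the Post libraries. Levels are given as CPM, the tags of a promoter per 1000000 tags of its library after TMM scaling, and values of libraries are listed in the order Mid 9, 10, 11, 12 and 13, then Post 5, 6 and 7. A promoter was called when the FDR of edgeR's quasi-likelihood F test was below 0.05, with fold changes on the log2 scale as Post minus Mid. Mid 9 to Mid 12 and both Pre libraries were sequenced in lane 3, but Mid 13 and the 3 Post libraries in lane 4. Lane and group are thus nearly the same division. The labels also carry a different identifier in each lane without saying what it names, so lane cannot be told from it. The Mid libraries were not alike. Over promoters that experiment #1 had called, the difference between those higher and those lower after feeding was -0.14 log2 units in Mid 10 and -0.28 in Mid 11, against -0.39 in Mid 12, -0.43 in Mid 13 and -0.43 in Mid 9, and it lay between 0.34 and 0.46 in the Post libraries. Mid 11 also had the most tags of red blood cell and neutrophil genes. The 6 measured red blood cell genes summed to 5670 CPM there, against 1299 to 3094 in the other Mid libraries and 1381 to 2012.6 in the Post libraries. The 5 measured neutrophil genes summed to 17.1 CPM in Mid 11, against 5.29 to 8.71 in the other Mid and 2.98 to 5.48 in the Post libraries. Slow fiber genes summed to between 24592 and 32129 CPM in the Mid and between 27147 and 36941 CPM in the Post libraries. The sums of fast fiber genes were between 34916 and 46124 CPM and between 35602 and 45291 CPM. Of the marker lists, 1 of 10 slow fiber, 1 of 12 fast fiber, 0 of 8 tendon, 0 of 5 Schwann cell and 0 of 4 cell division genes rose or fell, as did 1 of 9 adipocyte, 1 of 6 red blood cell, 0 of 5 neutrophil, 1 of 8 macrophage and 3 of 9 endothelial genes. In whole muscle, fewer cells of a type and less RNA per cell cannot be told apart. The part of these cell markers in the results below was not tested, and counts are given with and without Mid 10 and Mid 11. Both lay nearest the Post libraries in the difference given above, so counts without them are not an independent check.

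**Figure D1:**
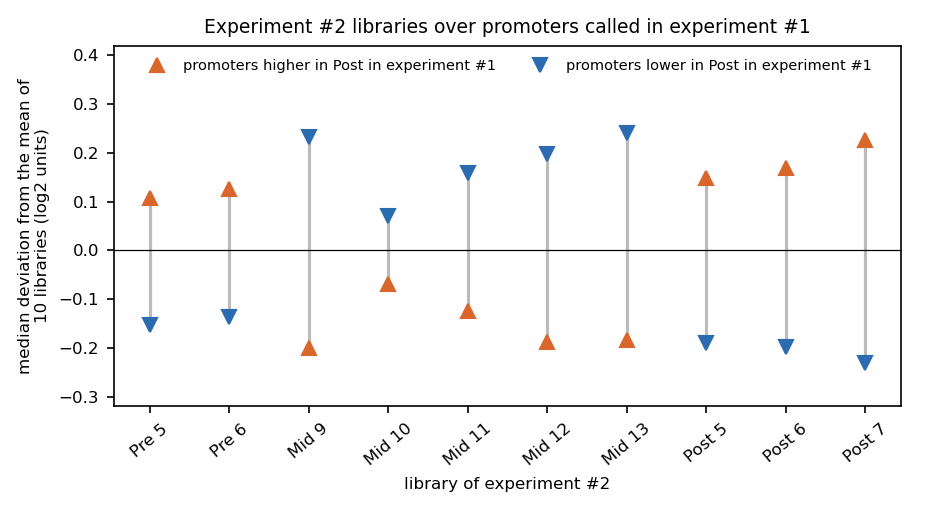
Each library of experiment #2 on the x axis, with the median deviation (log2 units, y axis) of its promoters from their mean over the 10 libraries, for the 1881 promoters higher (upward triangles) and the 1890 lower (downward triangles) in the Post group of experiment #1. The order of the 2 triangles is the opposite in the Mid libraries and in the Pre and Post libraries, and their distance is smallest in Mid 10.

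Many promoters changed from the Mid to Post, in both directions. In the Post against the Mid libraries, 836 promoters rose (7.73% of 10816 tested) and 936 fell (8.65%), with a median absolute log2 fold change of 0.61 and 0.66, and the change was over 1 log2 unit for 177 and 249 of them. Every Post library was above every Mid library for 1229 promoters (11.4%) and below for 1295 (12%), which included 783 of the called promoters that rose and 896 of those that fell. With Mid 10 and Mid 11 left out, 783 rose and 904 fell, of which 1408 were called with all libraries as well, and no called promoter changed sign. Without Post 7, 538 rose and 652 fell. The share of rises among the calls was 47.2% after TMM, but 62.2% with library size alone and 58.3% with upper-quartile scaling, which moved the median of all promoters by 0.084 and 0.052 log2 units. With 1 promoter per gene, 699 of 9076 genes rose (7.7%) and 773 fell (8.52%), with a median of -0.0023, and these are the shares beside which the gene lists are read. The lists were chosen with earlier results of these data known, so setting them beside these shares is not a test of a list.

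**Figure D2:**
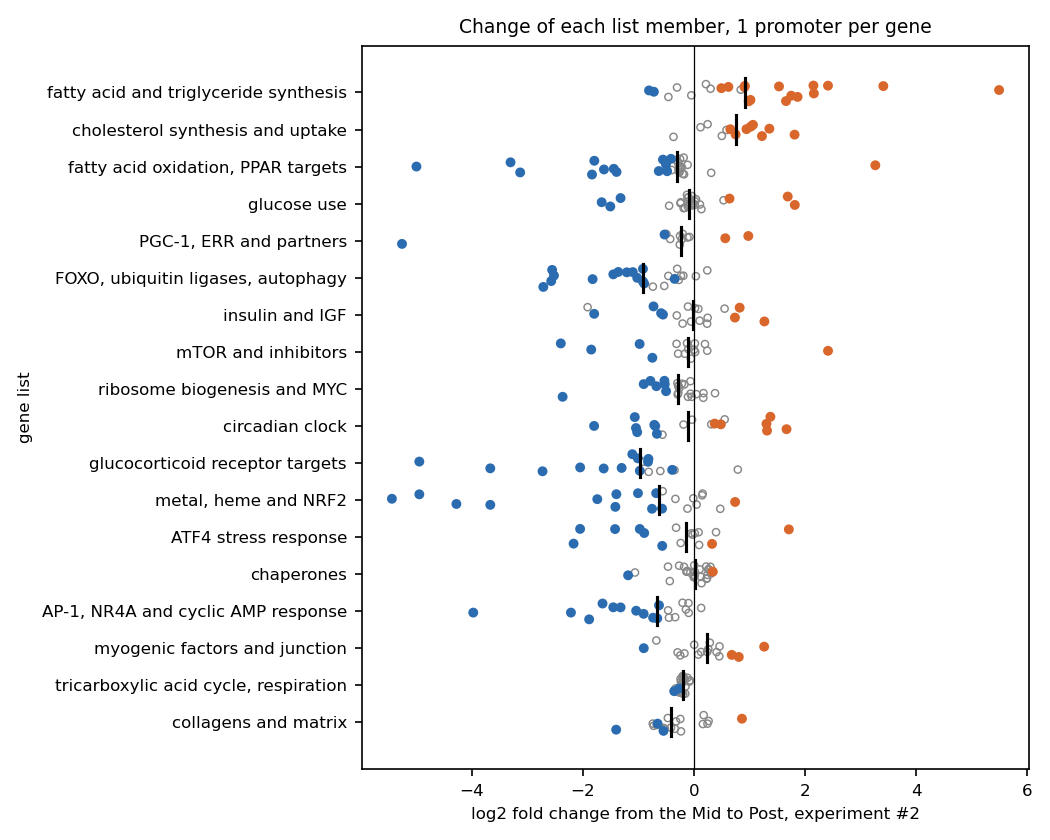
Log2 fold change from the Mid to Post in experiment #2 (x axis) of every measured member of 18 gene lists (y axis), with 1 promoter per gene. Filled points passed the FDR of 0.05 (orange rose, blue fell), open points did not, and black bars are list medians, which lie between -0.97 for glucocorticoid receptor targets and 0.92 for fatty acid and triglyceride synthesis.

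Genes of fatty acid and triglyceride synthesis mostly rose. Of 23 measured members 15 rose and 2 fell, with a median log2 fold change of 0.92, and 16 rose and 3 fell without Mid 10 and Mid 11. *Angptl8*, which encodes an insulin-induced regulator of lipoprotein lipase, had 0.107, 0.122, 0.514, 0.111 and 0 CPM in the Mid and 9.01, 3.6 and 11.2 CPM in the Post libraries (log2 fold change 5.49 ± 0.66 (SE), FDR = 0.000388). Its Mid levels are those of a few tags, with none in Mid 13, so that its fold change is poorly bounded. *Fasn*, the fatty acid synthase gene, had 10.5, 47.5, 9.62, 7.13 and 17.9 CPM in the Mid and 305, 101 and 198 CPM in the Post libraries (log2 fold change 3.41 ± 0.56 (SE), FDR = 0.0022). Mid 10 stood above the other Mid libraries for *Fasn*, and also for the lipid droplet gene *Pnpla3* at 12.9 CPM against 1.56 to 4.55 CPM in the others, yet both genes were higher in every Post library. *Pnpla3* reached 39.9, 14.3 and 25.9 CPM after feeding (log2 fold change 2.41 ± 0.55 (SE), FDR = 0.0135). Post 6 was the lowest of the 3 for these 3 genes.

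The carbon supply and control of that pathway moved in the same direction. *Acly*, whose product makes cytosolic acetyl-CoA from citrate, went from 8.6, 13.9, 12.1, 10.7 and 8.18 CPM to 58.4, 25 and 59.1 CPM (log2 fold change 2.15 ± 0.26 (SE), FDR = 0.000428). *Mid1ip1*, which encodes an activator of acetyl-CoA carboxylase, varied little within groups, with 38.8, 49.9, 44.2, 41.8 and 41.2 CPM in the Mid and 186, 184 and 209.8 CPM in the Post libraries (log2 fold change 2.16 ± 0.097 (SE), FDR = 1.16e-06). *Acss2*, which makes acetyl-CoA from acetate, changed less (log2 fold change 0.62 ± 0.085 (SE), FDR = 0.000792), from between 83.7 and 95.9 CPM to 128, 125 and 148 CPM. The main promoter of *Srebf1*, the SREBP-1 gene, rose by 1.75, as did *Agpat2* (1.66), *Thrsp* (1.87), *Slc25a1* (1.53), *Scd2* (1.02), *Fads1* (0.92), *Me1* (0.91) and *Mlxipl* (0.50). Not all triglyceride genes did so. *Lpin1*, a phosphatidate phosphatase gene, fell from between 85.2 and 98.2 CPM to 58.1, 56.6 and 49.7 CPM (log2 fold change -0.72 ± 0.092 (SE), FDR = 0.00054). *Gpam*, which encodes the first acyltransferase of glycerolipid synthesis, fell on its main promoter from 94, 84, 111, 107 and 113 CPM to 52.9, 62.1 and 59.6 CPM (log2 fold change -0.81 ± 0.15 (SE), FDR = 0.00525). Its other promoter did not pass the test (-0.12). With lane as a term, which leaves the comparison to Mid 13 alone, 3 members rose and 2 fell, and the median was 0.95.

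Most measured cholesterol genes rose as well. Of 13 measured members 8 rose and 0 fell (median 0.75), 9 rose and 1 fell without Mid 10 and Mid 11, and 4 rose and 0 fell with lane as a term. *Insig1*, whose product retains the SREBP chaperone in the endoplasmic reticulum and is itself an SREBP target, had 10.9, 13.5, 13.9, 10.8 and 12.4 CPM in the Mid and 27.7, 18.6 and 28.7 CPM in the Post libraries (log2 fold change 1.02 ± 0.14 (SE), FDR = 0.000994). Every Post library was above every Mid library. The sterol enzyme genes *Msmo1*, *Mvd* and *Sc5d* rose by 1.23, 1.06 and 0.95, with FDRs of 0.00133, 0.00119 and 0.000781. Among the rest, *Hmgcs1* and *Srebf2* rose by 0.75 and 0.66, while *Fdft1*, *Fdps*, *Ebp*, *Pmvk* and *Stard4* did not pass the test, with values between -0.37 and 0.59.

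The *Insig1* promoter (chr5:28071162-28071461, plus strand, GRCm38.p6, from RefSeq) is shown because it holds an E-box, CACGTG, a motif bound by basic helix-loop-helix factors, SREBP among them. The capitals mark the motif, which starts 51 bases before the main start of transcription in the CAGE data, and 7.15% of 32851 RefSeq promoter windows of the same length hold it on either strand.
Insig1: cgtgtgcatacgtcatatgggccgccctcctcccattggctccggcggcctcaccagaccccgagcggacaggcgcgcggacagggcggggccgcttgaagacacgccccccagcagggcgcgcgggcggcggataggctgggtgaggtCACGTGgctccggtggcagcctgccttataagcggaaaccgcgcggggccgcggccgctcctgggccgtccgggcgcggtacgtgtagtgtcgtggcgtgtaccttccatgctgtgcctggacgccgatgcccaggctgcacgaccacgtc

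Genes around fatty acid oxidation either fell or did not pass the test, with 1 exception. Of 29 measured members 1 rose and 13 fell (median -0.31), and 1 rose and 13 fell without Mid 10 and Mid 11. *Pdk4* (main promoter at chr6:5495772-5496712), whose kinase switches off pyruvate dehydrogenase, had 3923, 2257, 2609.8, 2987 and 3419 CPM in the Mid libraries and 96.4, 99.7 and 90.1 CPM in the Post libraries. The groups were far apart (31.9-fold lower, log2 fold change -4.99 ± 0.21 (SE), FDR = 1.16e-06), and the Post level was also below the 233 and 260.4 CPM of the Pre libraries. *Ucp3*, the gene of a mitochondrial carrier of fasted muscle, had 50.2, 47.6, 47.9, 54.6 and 49.95 CPM in the Mid and 6.1, 5.25 and 3.68 CPM in the Post libraries (log2 fold change -3.30 ± 0.19 (SE), FDR = 6.36e-06). *Angptl4*, which encodes an inhibitor of lipoprotein lipase, went from 48.8, 63.2, 38.8, 40.9 and 64.6 CPM to 7.69, 4.53 and 4.93 CPM (log2 fold change -3.13 ± 0.31 (SE), FDR = 0.000122). *Angptl4* thus fell where *Angptl8*, its relative, rose.

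The genes *Plin5* and *Ppara* of this list fell as well, and *G0s2* rose. *Plin5*, a droplet coat gene of oxidative tissue, fell from 60.6, 28.4, 41, 49.2 and 47.2 CPM to 13.1, 13.2 and 12.8 CPM, and *Ppara*, the gene of the fatty acid receptor PPARα, from 42.8, 43.2, 41.2, 45.3 and 44.7 CPM to 14.9, 19.6 and 13.9 CPM (log2 fold change -1.44 ± 0.13 (SE), FDR = 9.23e-05). The 1 member that rose was *G0s2*, whose product inhibits triglyceride lipase, with 7.31, 15.4, 19.7, 10.6 and 11.7 CPM in the Mid and 118, 122 and 139 CPM in the Post libraries (log2 fold change 3.27 ± 0.23 (SE), FDR = 1.84e-05). The lipase gene itself, *Pnpla2*, fell by 0.48. The thioesterase genes *Acot1* and *Acot2* (-1.83 and -1.62), *Ucp2* (-1.39), *Cd36* (-0.63), *Acaa2* (-0.56), *Slc25a20* (-0.50) and *Cpt2* (-0.41) fell. Of the enzymes of the oxidation spiral and of carnitine transfer, *Acadm* (-0.26), *Acadl* (-0.28), *Acadvl* (-0.22), *Hadha* (-0.20) and *Cpt1b* (-0.18) did not pass the test. With lane as a term, 9 members fell and 1 rose.

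Of 26 genes of glucose use 3 rose and 3 fell, with a median of -0.082, 3 rose and 3 fell without Mid 10 and Mid 11, and 2 rose and 2 fell with lane as a term. The pair of pyruvate dehydrogenase phosphatase genes, whose products undo the action of PDK4, went in opposite directions. *Pdp1* rose from 23.2, 22.3, 25.3, 17.4 and 20.9 CPM to 72.6, 60.005 and 78.7 CPM (log2 fold change 1.69 ± 0.12 (SE), FDR = 1.93e-05). *Pdp2* fell from 15.5, 17.1, 17, 24.8 and 21 CPM to 6.38, 5.76 and 5.87 CPM (log2 fold change -1.66 ± 0.16 (SE), FDR = 0.000126). No Post library overlapped the Mid range for either. *Pfkfb3*, which makes the activator of phosphofructokinase, rose from 6.56, 5.95, 5.51, 7.8 and 7.06 CPM to 25.3, 18.2 and 25.6 CPM (log2 fold change 1.82 ± 0.15 (SE), FDR = 5.14e-05). Its change in experiment #1 was 0.75, and the test of the difference between experiments, given below, did not call this gene. *Txnip*, which encodes an inhibitor of glucose uptake, fell from 469, 474, 443, 430.3 and 615 CPM to 169, 191 and 154 CPM (log2 fold change -1.50 ± 0.16 (SE), FDR = 0.000188), and Mid 13 was its highest Mid library. *Slc2a1* fell by 1.32 and *Pfkfb1* rose by 0.64. The enzymes of glycolysis and the transporter gene *Slc2a4* did not pass the test, and *Hk2* (-0.032), *Pfkm* (0.015), *Gapdh* (-0.16), *Pkm* (0.039) and *Slc2a4* (-0.034) were near 0.

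In the list of PGC-1 coactivators, estrogen-related receptors and their partners, 2 rose and 2 fell among 12 measured members (median -0.23), 1 rose and 3 fell without Mid 10 and Mid 11, and 0 rose and 1 fell with lane as a term. The falls were 4 without Mid 10 alone and 1 without Mid 11 or Post 7, and 1 rose without Post 6 or Post 7. *Ppargc1a*, which encodes PGC-1α, a coactivator of mitochondrial and fasting genes, is transcribed in these muscles from an upstream promoter (chr5:51567615-51567874) and from a downstream one 13853 bases away (chr5:51553735-51554071). The upstream promoter had 153, 93, 103, 111 and 66.7 CPM in the Mid libraries and 2.96, 2.06 and 3.05 CPM in the Post libraries (log2 fold change -5.25 ± 0.55 (SE), FDR = 0.000173). The downstream promoter had 20.2, 37.2, 22.4, 17.9 and 25.2 CPM and 21.3, 21.1 and 30.1 CPM (log2 fold change -0.038 ± 0.22 (SE), FDR = 0.929). The upstream promoter was the stronger in every Mid library and the weaker in every Post library. Pre 5 and Pre 6 differed on it, with 15.4 and 2.03 CPM. *Ppargc1b*, the gene of the related coactivator PGC-1β, rose from 9.24, 9.97, 8.59, 7.46 and 9.73 CPM to 17.8, 17.7 and 18 CPM (log2 fold change 0.98 ± 0.13 (SE), FDR = 0.000615), and *Sirt1* fell by 0.53 on the log2 scale. *Esrra* (-0.25), *Tfam* (-0.22), *Perm1* (-0.20) and *Gabpa* (-0.25) did not pass the test.

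The window around the RefSeq start of the upstream *Ppargc1a* promoter (chr5:51567676-51567975, minus strand, GRCm38.p6, from RefSeq) is shown because this promoter had the largest fall of the list. It holds the letters TGACGTG, a form of the cyclic AMP response element, read on the opposite strand and marked by capitals. The match starts 49 bases before the main start in the CAGE data, and 2.01% of all windows hold it on either strand.
Ppargc1a: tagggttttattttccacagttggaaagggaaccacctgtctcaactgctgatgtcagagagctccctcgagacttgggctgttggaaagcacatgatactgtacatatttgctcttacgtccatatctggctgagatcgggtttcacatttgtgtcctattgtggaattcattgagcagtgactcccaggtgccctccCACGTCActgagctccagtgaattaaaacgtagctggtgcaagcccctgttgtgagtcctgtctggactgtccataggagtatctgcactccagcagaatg

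Other genes also changed on 1 promoter more than on another. Of 460 genes with at least 2 promoter clusters, 152 (33%) had promoters that changed unequally (edgeR's test of differential usage, FDR below 0.05, chosen after the values were seen), and 13 had promoters called in both directions. For the 14 genes examined further, an exact two-sided permutation test of the log2 ratio of both promoters between the Mid and Post libraries gave p = 0.0179 for 13, the smallest p that 56 divisions allow, and p = 0.0714 for *Mtus1*. These genes were chosen for their unequal change, so these p-values describe how completely the libraries separated.

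The *Acaca* gene, which encodes acetyl-CoA carboxylase 1, rose mainly from its upstream promoter. That promoter (chr11:84173213-84173534) had 0.967, 4.25, 0.514, 0.891 and 1.55 CPM in the Mid and 44.4, 12.7 and 39.3 CPM in the Post libraries (log2 fold change 4.20 ± 0.54 (SE), FDR = 0.00054), and Mid 10 was the highest Mid library. The promoter 6533 bases downstream (chr11:84179758-84180060) had 11, 19.7, 13.6, 13.3 and 16.6 CPM and 35.6, 23.1 and 29.9 CPM (log2 fold change 0.99 ± 0.20 (SE), FDR = 0.00643). For *Srebf1* it was the downstream promoter (chr11:60210352-60210507) that rose, from 4.62, 6.5, 7.93, 4.9 and 6.2 CPM to 20.1, 12.9 and 28.6 CPM (log2 fold change 1.75 ± 0.24 (SE), FDR = 0.000854). Its upstream promoter, 10184 bases away, had between 9.72 and 12.3 CPM in the Mid and between 10.3 and 12.1 CPM in the Post libraries (log2 fold change -0.021, FDR = 0.928).

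*Pde4d*, a cyclic AMP phosphodiesterase gene with 4 promoter clusters, fell on the stronger of the 2 examined from 148, 49.8, 67.8, 72.5 and 53.1 CPM to 3.61, 5.35 and 6.26 CPM (log2 fold change -3.97 ± 0.42 (SE), FDR = 0.000171). The other fell by only 0.56, and Mid 9 was far above the other Mid libraries on the first. *Slc39a14*, the gene of the zinc and iron importer ZIP14, fell most on its weaker promoter, which had 15, 7.72, 7.93, 10.7 and 8.77 CPM in the Mid and 0.704, 0.103 and 0.391 CPM in the Post libraries (log2 fold change -4.46 ± 0.44 (SE), FDR = 0.000126). Its main promoter, 19940 bases away, had between 12.4 and 18.4 CPM and between 8.68 and 11.8 CPM (log2 fold change -0.57 ± 0.15 (SE), FDR = 0.0281). *Lrch1* fell by 4.06 on its weaker promoter and by 0.42 on the other. *Hdac4*, a class IIa histone deacetylase gene, rose on its weaker promoter (1.09) with 0.13 on the main one, and *Per1* fell by 2.13 and 1.06.

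Promoters of the same gene were called in opposite directions for *Casz1*, *Tnrc6b*, *Kalrn* and *Esrrb*. *Casz1*, a zinc finger factor gene, rose on 1 promoter from 6.66, 7.96, 8.22, 6.46 and 10.1 CPM to 18.1, 17.4 and 19.8 CPM (log2 fold change 1.21) and fell on the other, 96729 bases away, from 12, 7.23, 9.54, 9.8 and 9.79 CPM to 2.91, 3.71 and 2.58 CPM (-1.66). *Tnrc6b*, which encodes a partner of Argonaute, fell on its main promoter (-0.60) and rose on the other (1.89), from between 5.57 and 11.1 CPM to between 26.2 and 35.8 CPM. *Kalrn*, a guanine nucleotide exchange factor gene, rose on the main promoter (0.95) and fell on another 477519 bases away (-1.15). *Esrrb*, the gene of an estrogen-related receptor, rose by 0.57 and fell by 0.63 on the log2 scale.

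**Figure D3:**
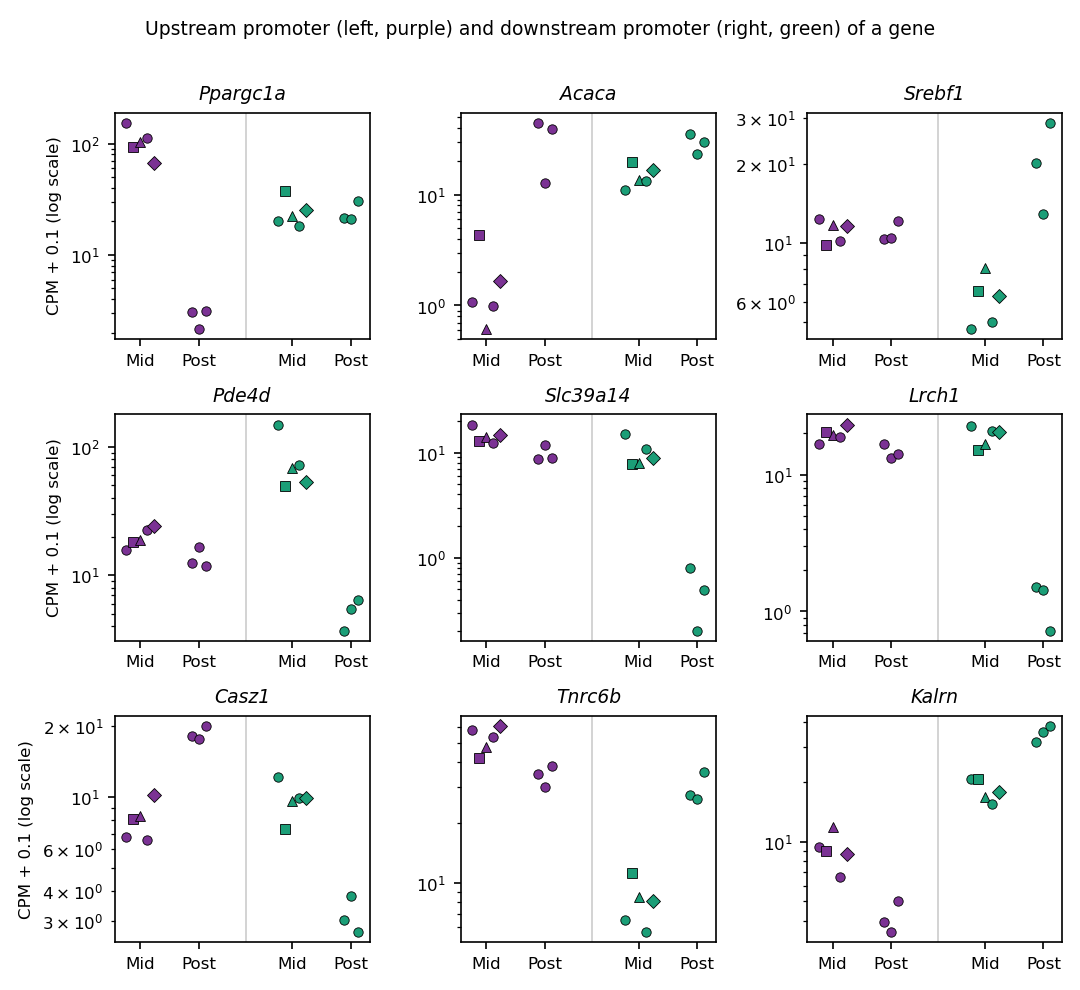
CPM + 0.1 (y axis, log scale) of the upstream promoter (left, purple) and the downstream promoter (right, green) of 9 genes in the Mid and Post libraries, 1 point per library (square Mid 10, triangle Mid 11, diamond Mid 13). In Ppargc1a the upstream points fall from at least 66.7 to at most 3.05 CPM while the downstream points overlap between groups.

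Most genes of FOXO factors, muscle ubiquitin ligases and autophagy fell. Of 23 measured members 0 rose and 14 fell (median -0.91), 0 rose and 14 fell without Mid 10 and Mid 11, and 12 fell with lane as a term. *Trim63*, which encodes the ubiquitin ligase MuRF1, had 674, 459.7, 499, 724 and 532 CPM in the Mid and 105, 94.9 and 102 CPM in the Post libraries (log2 fold change -2.52 ± 0.17 (SE), FDR = 1.69e-05). *Gabarapl1*, an autophagosome gene, had 385, 213, 301, 366 and 321 CPM and 45.6, 50.9 and 49.1 CPM (log2 fold change -2.71 ± 0.19 (SE), FDR = 1.84e-05). Mid 10 was the lowest Mid library for both, yet it was above every Post library. *Foxo1* itself fell from 33.1, 41.4, 35.2, 35.5 and 43.1 CPM to 17.4, 16.4 and 15.2 CPM (log2 fold change -1.21 ± 0.11 (SE), FDR = 7.48e-05), with *Foxo3* at -0.91. The transcription factor gene *Cebpd* fell from 223, 120.1, 155, 195 and 159 CPM to 30.4, 30.7 and 25.1 CPM (log2 fold change -2.57 ± 0.19 (SE), FDR = 2.92e-05), and *Depp1*, a FOXO-induced regulator of autophagy, from 19.3, 11.6, 12.3, 19.7 and 19.4 CPM to 3.28, 2.57 and 2.43 CPM (log2 fold change -2.55 ± 0.25 (SE), FDR = 0.000118). The ligase genes *Fbxo32*, *Fbxo30* and *Fbxo31* (-1.36, -1.10 and -0.92), *Ulk1* (-1.82), *Klf15* (-1.45) and *Sqstm1* (-1.02) fell too. The conjugation genes *Map1lc3a* (0.036 on its main promoter) and *Map1lc3b* (-0.27) did not pass the test, nor did *Ctsl* (-0.74) or *Tfeb* (0.24). The other promoter of *Map1lc3a* rose by 0.44.

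The *Trim63* promoter (chr4:134314870-134315169, plus strand, GRCm38.p6, from RefSeq) is shown as that of the ubiquitin ligase gene with the smallest FDR. Capitals mark the FOXO motif GTAAACA, here on the opposite strand and 192 bases before the main CAGE start, and the TATA box TATAAA 29 bases before it. These letters occur on either strand in 3.65% and 13.6% of all windows.
Trim63: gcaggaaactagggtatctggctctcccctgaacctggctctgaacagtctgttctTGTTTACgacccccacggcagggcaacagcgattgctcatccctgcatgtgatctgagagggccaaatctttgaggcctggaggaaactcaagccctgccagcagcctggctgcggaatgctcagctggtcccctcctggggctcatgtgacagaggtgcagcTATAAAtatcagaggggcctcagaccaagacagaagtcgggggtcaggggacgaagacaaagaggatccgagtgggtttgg

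Most targets of the glucocorticoid receptor fell. Of 17 measured members 0 rose and 12 fell (median -0.97), 0 rose and 13 fell without Mid 10 and Mid 11, and 11 fell with lane as a term. *Cdkn1a*, the gene of the cell cycle inhibitor p21, had 149, 77.7, 93.5, 122 and 91.2 CPM in the Mid and 16.7, 18.1 and 13.5 CPM in the Post libraries (log2 fold change -2.72 ± 0.22 (SE), FDR = 3.78e-05). *Tsc22d3*, which encodes the glucocorticoid-induced leucine zipper protein, had 144, 147, 134, 167 and 128 CPM and 54.7, 40.1 and 44.7 CPM (log2 fold change -1.62 ± 0.13 (SE), FDR = 3.22e-05). *Fkbp5*, a co-chaperone gene of the receptor, had 151, 126, 141, 121 and 135 CPM and 70.5, 50.4 and 42.6 CPM (log2 fold change -1.30 ± 0.15 (SE), FDR = 0.000359). No Post library reached the Mid range of any of the 3 genes, and the Pre libraries had 23.2 and 19.5 CPM of *Cdkn1a*, 47.4 and 55.8 CPM of *Tsc22d3* and 67.4 and 59.3 CPM of *Fkbp5*. *Zbtb16* and *Sult1a1* fell by 1.01 and 1.11 on the log2 scale. *Rasd1* (0.79), *Dusp1* (-0.35), *Nfkbia* (-0.60) and *Glul* (-0.91) did not pass the test. *Mt1* and *Mt2* are on this list and on the metal list.

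In the insulin and IGF list 3 rose and 4 fell of 18 members (median -0.015), 4 rose and 3 fell without Mid 10 and Mid 11, and 0 rose and 2 fell with lane as a term. Without Post 7, 1 rose and 2 fell, without Mid 12, 1 rose, and without Post 5, 2 fell. *Irs2*, the gene of an insulin receptor substrate that FOXO factors induce, fell from 141, 78.6, 66.4, 111 and 86.6 CPM to 30.1, 31.8 and 21.6 CPM (log2 fold change -1.79 ± 0.25 (SE), FDR = 0.000889). *Tbc1d1*, a regulator of GLUT4 traffic, rose from between 5.9 and 7.63 CPM to 12.9, 10.6 and 13.1 CPM (log2 fold change 0.82 ± 0.16 (SE), FDR = 0.00533). Its change in experiment #1 was 0.033, and the test of the difference between experiments, given below, did not call this gene. *Igf1* rose by 1.27 and *Igfbp5* by 0.74, and *Pik3ca*, *Igfbp3* and *Phlda1* fell by 0.59, 0.73 and 0.56 on the log2 scale. *Insr* (-0.31), *Akt1* (0.10) and *Akt2* (0.021) did not pass the test.

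Among 16 genes of the mTOR complexes and their inhibitors 1 rose and 4 fell (median -0.11), 1 rose and 4 fell without Mid 10 and Mid 11, and 1 rose and 1 fell with lane as a term, with 2 fallen without Post 6. The called members were genes of inhibitors or, with *Eif4ebp1*, of a translation repressor that mTOR phosphorylates, and they did not all move in 1 direction. *Sesn1*, a sestrin gene, fell from 69.98, 48, 53.7, 55.1 and 50.01 CPM to 16.9, 14 and 14.9 CPM (log2 fold change -1.85 ± 0.14 (SE), FDR = 3.02e-05). *Ddit4*, which encodes REDD1, fell from 52.4, 15.2, 22.7, 36.3 and 23.1 CPM to 6.1, 3.4 and 7.12 CPM (log2 fold change -2.39 ± 0.41 (SE), FDR = 0.00282). Its relative *Ddit4l* rose from 18.9, 22.5, 21.4, 26.6 and 19.3 CPM to 121, 96.3 and 130.3 CPM (log2 fold change 2.42 ± 0.16 (SE), FDR = 1.49e-05), so that the Mid levels of *Ddit4l* were the low ones. *Eif4ebp1* and *Sesn2* fell by 0.75 and 0.98 on the log2 scale. *Mtor* (-0.31), *Rptor* (0.24), *Tsc1* (0.0036) and *Tsc2* (0.025) did not pass the test. In the list of ribosome biogenesis, 0 rose and 7 fell of 23 (median -0.28), 0 rose and 6 fell without Mid 10 and Mid 11, and 0 rose and 2 fell with lane as a term. *Myc* fell from 22.4, 9.36, 16.2, 15.5 and 18.6 CPM to 3.42, 3.5 and 2.58 CPM (log2 fold change -2.36 ± 0.27 (SE), FDR = 0.000296), and the nucleolar genes *Gnl3*, *Rrs1*, *Nolc1* and *Npm1* fell by 0.90, 0.78, 0.67 and 0.50. The polymerase I genes *Polr1a* (-0.061) and *Polr1b* (-0.17) did not pass the test.

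Clock genes changed in both directions. Of 18 measured members 6 rose and 7 fell (median -0.11), 6 rose and 7 fell without Mid 10 and Mid 11, and with lane as a term 2 rose and 5 fell. Some of its repressor genes rose. *Bhlhe40* had 17.3, 19.9, 13.8, 13.1 and 12 CPM in the Mid and 45.7, 47.4 and 52.4 CPM in the Post libraries (log2 fold change 1.67 ± 0.15 (SE), FDR = 8.89e-05), and *Bhlhe41* had 10.2, 8.08, 8.3, 6.35 and 10.001 CPM and 18.9, 20.2 and 28.3 CPM (log2 fold change 1.38 ± 0.17 (SE), FDR = 0.000394). *Nr1d1*, which encodes REV-ERBα, the repressor of *Arntl*, went from 18.9, 18, 23.6, 21.2 and 26 CPM to 53.3, 40.9 and 67.2 CPM (log2 fold change 1.32 ± 0.17 (SE), FDR = 0.000539), above the 13.6 and 18.1 CPM of the Pre libraries. *Arntl*, the BMAL1 gene, fell from 77.3, 50.3, 47.4, 58.6 and 58.5 CPM to 30.9, 25.1 and 28.6 CPM (log2 fold change -1.04 ± 0.15 (SE), FDR = 0.00119), with *Npas2* at -1.02. The period genes went apart, with *Per3* risen from 3.12, 2.86, 3.45, 2.9 and 3.48 CPM to 8.35, 6.69 and 8.45 CPM (log2 fold change 1.31 ± 0.17 (SE), FDR = 0.000603) and *Per1* fallen from 17.3, 10.8, 16.3, 13.3 and 15.3 CPM to 6.66, 5.15 and 9 CPM (log2 fold change -1.06 ± 0.20 (SE), FDR = 0.00489). *Nfil3*, the gene of a repressor at D-boxes, fell from 150.4, 96.3, 84.3, 98.2 and 127 CPM to 36.3, 34.4 and 25.2 CPM (log2 fold change -1.80 ± 0.20 (SE), FDR = 0.000242), while the D-box activator gene *Dbp* rose by 0.49, and *Hlf* (0.55) and *Tef* (-0.033) did not pass the test. *Rora* and *Cry2* fell by 0.71 and 0.66, and *Per2* (-0.57), *Cry1* (0.31) and *Clock* (-0.19) did not pass the test.

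The *Per3* promoter (chr4:151044616-151044915, minus strand, GRCm38.p6, from RefSeq) is shown because it holds the D-box letters TTANGTAA at 2 places, marked by capitals, 249 and 202 bases before the main CAGE start. The letters occur on either strand in 2.32% of all windows.
Per3: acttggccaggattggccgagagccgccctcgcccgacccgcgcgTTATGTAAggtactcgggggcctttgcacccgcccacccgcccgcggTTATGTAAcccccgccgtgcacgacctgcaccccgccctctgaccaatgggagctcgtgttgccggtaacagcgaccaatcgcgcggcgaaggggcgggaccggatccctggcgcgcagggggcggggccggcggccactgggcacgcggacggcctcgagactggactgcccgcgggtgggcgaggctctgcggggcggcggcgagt

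The genes with the largest falls included those of metal and heme handling. Of 20 members of the metal, heme and NRF2 list 1 rose and 11 fell (median -0.63), and 0 rose and 12 fell without Mid 10 and Mid 11, but 5 fell without Post 5 and 7 without Post 6. *Hmox1*, the gene of heme oxygenase 1, had 395, 13.9, 255, 433 and 503 CPM in the Mid and 7.88, 6.07 and 7.98 CPM in the Post libraries (log2 fold change -5.44 ± 0.96 (SE), FDR = 0.00349). Mid 10, at 13.9 CPM, was close to the 7.8 and 10.9 CPM of the Pre libraries and far below the other Mid libraries, though above every Post library. Mid 10 was also the lowest Mid library for the metallothionein genes, whose products bind zinc and copper. *Mt1* had 2089, 519, 1156, 1941 and 2545 CPM and 153, 109 and 128 CPM (log2 fold change -3.66 ± 0.48 (SE), FDR = 0.000603), and *Mt2* had 2654, 339.7, 1610.2, 2435 and 3430.5 CPM and 73.6, 46.1 and 84.3 CPM (log2 fold change -4.94 ± 0.68 (SE), FDR = 0.000835). *Slc30a2*, a zinc transporter gene, went from 8.81, 1.64, 6.9, 10.7 and 8.93 CPM to 0.469, 0.103 and 0.47 CPM (log2 fold change -4.27 ± 0.67 (SE), FDR = 0.00174). In all 4 genes Mid 10 was the lowest and Mid 11 the second lowest of the Mid libraries. Of the NRF2 targets, *Osgin1*, *Srxn1*, *Gclm* and *Txnrd1* fell (-1.39, -1.74, -1.41 and -0.75) and *Nqo1* rose (0.74). The ferritin genes *Fth1* (0.05) and *Ftl1* (-0.56) did not pass the test. With lane as a term, 5 members fell and 0 rose.

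The *Mt1* and *Mt2* windows (chr8:94178839-94179138 and chr8:94172368-94172667, plus strand, GRCm38.p6, from RefSeq) are shown for their metal response elements. Capitals mark the letters TGCGCNC and TGCACNC, on either strand, which occur in 15.4% and 12.6% of all windows. The main CAGE starts lie 151 and 164 bases after the RefSeq starts, beyond the end of both windows, and the matches lie between 131 and 174 bases before it in *Mt1* and between 160 and 387 bases before it in *Mt2*. Tags of these near relatives may be exchanged by mapping, as may those of *Hspa1a* and *Hspa1b*.
Mt1: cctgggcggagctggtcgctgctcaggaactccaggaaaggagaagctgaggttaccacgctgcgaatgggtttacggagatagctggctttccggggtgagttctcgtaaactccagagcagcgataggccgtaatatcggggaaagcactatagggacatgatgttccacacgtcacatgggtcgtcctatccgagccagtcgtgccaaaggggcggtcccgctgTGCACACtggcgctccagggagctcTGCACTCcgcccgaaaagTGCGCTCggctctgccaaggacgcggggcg
Mt2: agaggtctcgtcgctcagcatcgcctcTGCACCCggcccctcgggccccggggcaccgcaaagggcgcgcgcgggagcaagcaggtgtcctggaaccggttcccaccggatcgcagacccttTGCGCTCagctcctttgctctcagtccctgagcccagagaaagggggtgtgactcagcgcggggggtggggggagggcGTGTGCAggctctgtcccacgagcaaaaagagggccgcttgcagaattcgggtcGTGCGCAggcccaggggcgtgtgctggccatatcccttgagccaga

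Stress genes split. Of 16 members of the ATF4 list 2 rose and 6 fell (median -0.14), 1 rose and 6 fell without Mid 10 and Mid 11, and 1 rose and 1 fell with lane as a term. *Atf3*, the gene of a stress-induced factor, fell from 72.3, 27.3, 28.3, 47.2 and 39.5 CPM to 10.4, 11.3 and 6.81 CPM (log2 fold change -2.16 ± 0.40 (SE), FDR = 0.0041), with Pre 5 at 30.3 CPM within the Mid range. *Chac1*, a glutathione-degrading enzyme gene, fell from 17.5, 16, 15.8, 22.7 and 19.4 CPM to 4.83, 3.81 and 4.46 CPM (log2 fold change -2.05 ± 0.16 (SE), FDR = 3.02e-05), and *Ppp1r15a*, a phosphatase subunit gene, fell by 1.42. *Ddit3*, which encodes CHOP, rose from 25.2, 19.1, 21.1, 18.6 and 18 CPM to 54.5, 65.8 and 79.5 CPM (log2 fold change 1.71 ± 0.13 (SE), FDR = 3.16e-05). *Nupr1*, *Slc38a2* and *Atf4* itself fell by 0.89, 0.97 and 0.57. Of the aminoacyl-tRNA synthetase genes, *Aars* rose by 0.33, while *Gars* (0.095), *Nars* (-0.05) and *Sars* (0.017) did not pass the test. Of 26 chaperone genes, 1 rose and 1 fell (median 0.018), 0 rose and 1 fell without Mid 10 and Mid 11, and 0 rose and 1 fell with lane as a term. *Hspa1a*, an inducible HSP70 gene, fell from 324, 199.9, 206, 215 and 295 CPM to 129, 122 and 76.4 CPM (log2 fold change -1.18 ± 0.22 (SE), FDR = 0.00445), and *Hspa5* (-0.43) and the cold-induced genes *Cirbp* (0.26) and *Rbm3* (0.0041) did not pass the test.

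Of 19 genes of the AP-1, NR4A and cyclic AMP response 0 rose and 11 fell (median -0.66), 0 rose and 11 fell without Mid 10 and Mid 11, and 0 rose and 4 fell with lane as a term. *Fos*, *Maff*, *Btg2* and *Gadd45b* fell by 2.21, 1.88, 1.64 and 1.45, and *Sik1*, a kinase gene induced by cyclic AMP, fell from 117, 78, 81.5, 99.8 and 78.2 CPM to 39.2, 48 and 45.7 CPM (log2 fold change -1.04 ± 0.15 (SE), FDR = 0.00117). Mid 9 was the highest Mid library for *Btg2*, at 124 CPM, as it was for *Sik1* and *Pde4d*. *Egr1* (-0.20), *Nr4a1* (-0.46) and *Jun* (-0.45) did not pass the test.

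Most genes of the neuromuscular junction, the respiratory chain and the matrix did not pass the test. This holds for all genes too, of which 7.7% rose and 8.52% fell. Of 17 myogenic and junction genes 3 rose and 1 fell (median 0.24), 3 rose and 2 fell without Mid 10 and Mid 11, and 0 rose and 1 fell with lane as a term. *Myod1* rose from 11.1, 6.5, 4.85, 6.35 and 6.69 CPM to 19, 13.9 and 17.5 CPM (log2 fold change 1.27 ± 0.21 (SE), FDR = 0.00268), *Lrp4* (the agrin receptor) and *Rapsn* (rapsyn) rose by 0.81 and 0.68, *Dok7* fell by 0.90, and *Runx1* (-0.68) did not pass the test. All 23 genes of the tricarboxylic acid cycle and respiration had negative values (median -0.20), but only *Dlst* (-0.27) and *Ndufs1* (-0.35) passed the test. 1 passed it without Mid 10 and Mid 11, 0 with lane as a term, and between 0 and 4 as single libraries were left out in turn, with 4 without Mid 13 and 0 without Mid 12 or any 1 of the Post libraries. Of 19 collagen and matrix genes 1 rose and 3 fell (median -0.41), and 3 rose and 3 fell without Mid 10 and Mid 11. With lane as a term 0 rose and 1 fell, with a median of 0.27. *Lox*, the collagen cross-linking enzyme gene, fell from 85.7, 89, 80.4, 83.5 and 92.6 CPM to 31.1, 27.8 and 39.2 CPM (log2 fold change -1.40 ± 0.11 (SE), FDR = 3.16e-05), and the basement membrane genes *Col4a1* and *Col4a2* fell by 0.65 and 0.55. *Col1a1* (-0.72) and *Col3a1* (-0.55) did not pass the test.

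The 12 protein-coding genes with the largest rises whose groups did not overlap also held *Tnk2*, *Mchr1*, *Ptges*, *Lrrc38*, *Ky*, *Hdac9* and *Sec14l5*. *Tnk2*, a tyrosine kinase gene, had 1.93, 2.73, 2.28, 2.45 and 2.73 CPM in the Mid and 16.9, 18.7 and 21.3 CPM in the Post libraries (log2 fold change 2.95 ± 0.14 (SE), FDR = 1.68e-06). *Hdac9*, a class IIa histone deacetylase gene, had 5.48, 4.8, 5.58, 2.23 and 7.97 CPM and 26.5, 27.5 and 28 CPM (log2 fold change 2.35 ± 0.25 (SE), FDR = 0.000198). *Mchr1*, the gene of a melanin-concentrating hormone receptor, rose from 1.4, 1.82, 0.881, 1.45 and 0.802 CPM to 9.76, 8.44 and 13.2 CPM (log2 fold change 3.05 ± 0.28 (SE), FDR = 8.07e-05). That the groups did not overlap in these 3 genes was a condition of their choice. *Ky*, a gene needed for muscle growth, rose from 2.47, 5.71, 3.23, 3.68 and 4.6 CPM to 24, 18.5 and 24.5 CPM, and *Lrrc38*, a potassium channel subunit gene, from 0.86, 3.95, 2.13, 2.12 and 3.32 CPM to 17.2, 12.8 and 12.8 CPM. *Ptges*, which makes prostaglandin E2, and *Sec14l5* rose by 2.69 and 2.37. The 12 largest falls were *Hmox1*, *Ppargc1a*, *Pdk4*, *Hist1h3b*, *Mt2*, *Slc4a1*, *Slc30a2*, *Hist1h2ab*, *Pde4d*, *Mt1*, *Ucp3* and *Asb15*, of which *Asb15*, a muscle gene of the ankyrin repeat and SOCS box family, fell from 45.8, 26.6, 25.4, 20.8 and 40.3 CPM to 3.14, 3.81 and 2.66 CPM (log2 fold change -3.32 ± 0.32 (SE), FDR = 0.000121).

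Some of these rested on single libraries. The histone gene *Hist1h3b* had 8.49, 4.74, 68.6, 6.79 and 0.909 CPM in the Mid and 0.328, 0.618 and 0.783 CPM in the Post libraries (log2 fold change -5.03 ± 1.45 (SE), FDR = 0.039), and *Hist1h2ab* had 16.6, 9.18, 97.3, 10.5 and 2.09 CPM and 1.6, 1.34 and 2.03 CPM (log2 fold change -4.02 ± 1.21 (SE), FDR = 0.0462). *Slc4a1*, the gene of the red cell anion exchanger, had 2.58, 1.15, 17.2, 2.78 and 0.535 CPM and 0.0938, 0.206 and 0.391 CPM (log2 fold change -4.43 ± 1.28 (SE), FDR = 0.0396). Mid 11 was far above the other libraries in all 3, and Mid 13 was the lowest Mid library. With lane as a term their values were -0.74 (FDR = 0.886), -0.32 (FDR = 0.947) and -1.27 (FDR = 0.717). Mid 11 also had the most cell division tags of the Mid libraries, with 4 genes summing to 44.6 CPM against 23.1 to 28.2 CPM in the others and 19.2 to 24.7 CPM in the Post libraries. Tags of histone and hemoglobin genes can be assigned to a wrong copy. Among the rises, the processed pseudogenes *Gm44768*, *Gm46544* and *Gm4760* and the gene *Akr1c6* passed the test while Post 5 was as low as the Mid libraries. *Gm44768* had 3.05 CPM in Mid 13, 0.0469, 16.5 and 74.5 CPM in the Post libraries, and no tag in lane 3.

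**Figure D4:**
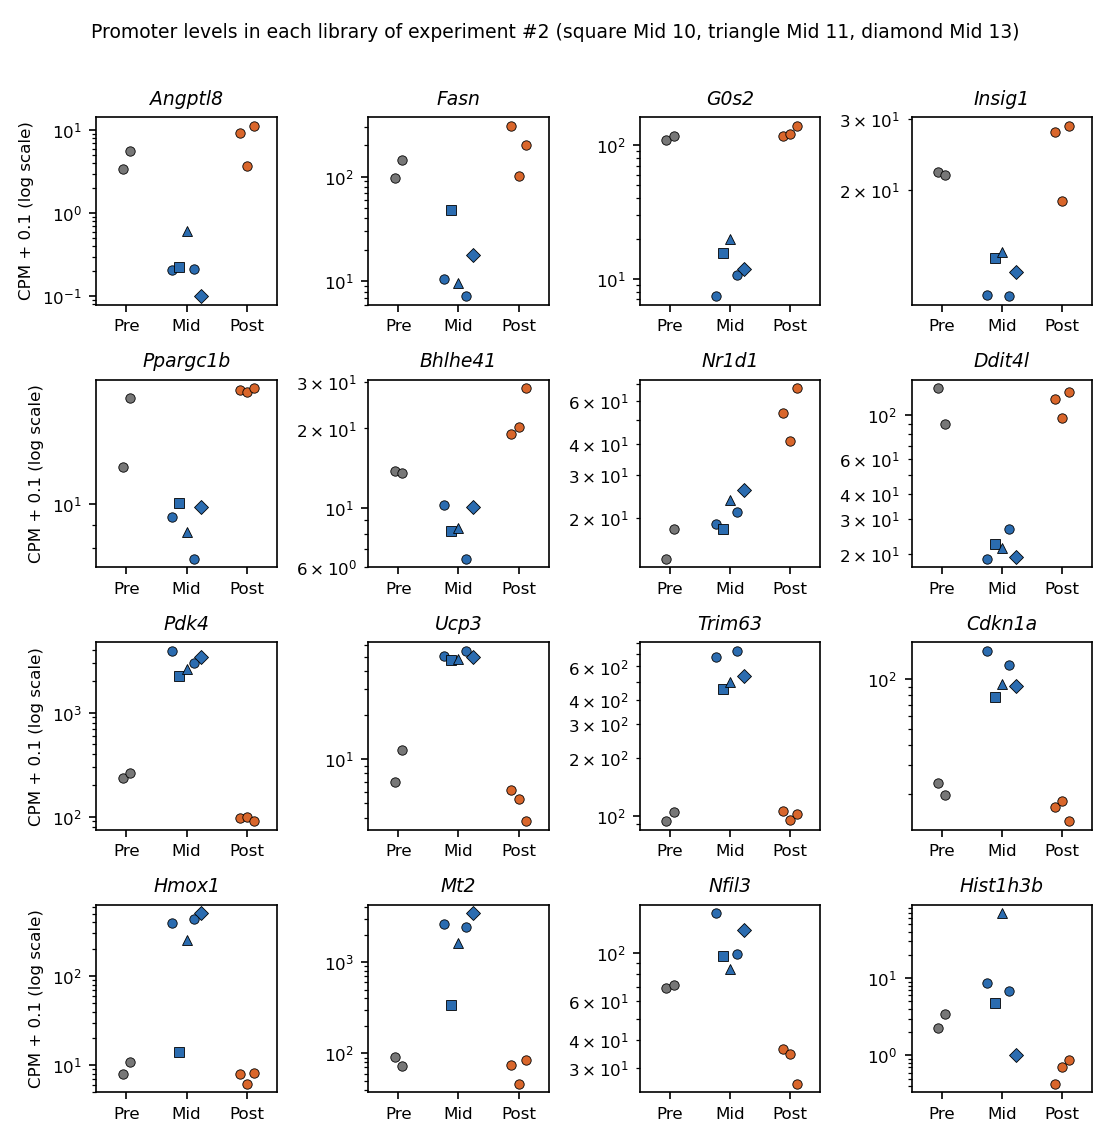
CPM + 0.1 (y axis, log scale) of the main promoter of 16 genes in the Pre, Mid and Post libraries of experiment #2, 1 point per library (square Mid 10, triangle Mid 11, diamond Mid 13). In every panel the 3 Post points lie on 1 side of all 5 Mid points, and in Hist1h3b the triangle (Mid 11), at 68.6 CPM, lies far above the other points.

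Lane could be tested only within the Mid group, where Mid 13 alone shares the lane of the Post libraries. In a fit with lane as a term, 4.48% of the promoters were called, of which 148 rose (1.37%) and 337 fell (3.12%), among them 144 of the 836 and 317 of the 936 called before, and 1771 of the 1772 called promoters kept their sign. The median SE of a promoter was 0.20 with lane and 0.13 without, since the contrast then compares 1 Mid library with 3 Post libraries. The lane term itself was called for 0 of 10816 promoters with the quasi-likelihood test, with 719 (6.65%) at an unadjusted p below 0.05, and for 8 higher and 1 lower in lane 4 with the likelihood ratio test. It cannot tell lane from mouse, as it is Mid 13 against the other Mid libraries. The genes with the smallest FDR in this fit were *Mid1ip1*, *Tnk2*, *Ddit4l*, *Pdp1*, *Bhlhe40*, *Ddit3*, *Rrad* and *G0s2* among those that rose, and *Pdk4*, *Slc25a22*, *Ucp3*, *Gm17251*, *Gabarapl1*, *Pank1*, *Trim63* and *Sorbs3* among those that fell. *Pdk4* was -5.16 (FDR = 1.9e-05) in it, *Slc25a22*, a mitochondrial glutamate carrier gene, -2.33 (FDR = 0.000134), and *Mid1ip1* 2.23 (FDR = 0.000557). *Slc25a22* had 32, 25.5, 33.7, 31.3 and 32.5 CPM in the Mid and 6.71, 6.38 and 6.26 CPM in the Post libraries, and *Pank1*, the gene of a kinase of coenzyme A synthesis, 59.8, 45.1, 62, 66.1 and 58.5 CPM and 12.1, 14.4 and 10.8 CPM. *Rrad*, a gene of a small GTPase that inhibits calcium channels, rose from 12.3, 10.6, 9.69, 10.02 and 12.1 CPM to 37.8, 55.6 and 40.9 CPM, and *Sorbs3*, which encodes vinexin, fell from 41.7, 33.5, 36.3, 37.2 and 37.8 CPM to 13.6, 12.2 and 10.7 CPM. *Fasn* and *Pnpla3* kept their sign with lane as a term, with FDRs of 0.123 and 0.219.

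Experiment #1 gave the same comparison in other mice, at a greater depth and with more libraries. The study names a NextSeq or a HiSeq sequencer for experiments #1 and #2, so the sequencer may differ between them as well. There 35% of the 10776 tested promoters were called, 1881 risen (17.5%) and 1890 fallen (17.5%), in a fit of all libraries of that set, other groups included. The Mid and Post libraries alone gave 1595 and 1506. Without scaling factors the counts over all libraries were 808 and 822, so the counts that rest on these calls depend on the scaling. Of the promoters called in experiment #2, 287 were not called in experiment #1, and 38 of 1769 with a value in both had the opposite sign. *Pdk4* was -4.37 in experiment #1 and -4.99 in experiment #2, *Ppargc1a* -5.97 and -5.25, *Angptl8* 4.91 and 5.49, *Trim63* -2.63 and -2.52, and *G0s2* 2.76 and 3.27. A test of the difference of the change between the experiments called 0 of 10819 promoters (edgeR's quasi-likelihood test, lowest FDR = 0.859), with 563 (5.2%) at an unadjusted p below 0.05. The 3 genes with the smallest p were *Slc25a23* (0.27 in experiment #2 and -0.64 in experiment #1), *Rps6ka3* (0.87 and -0.01) and *Naa38* (-0.43 and -0.01). In simulated counts the test of the difference recovered 82 of 200 differences (41%) of 1 log2 unit and 200 of 200 of 2 log2 units. The simulation gave every promoter the same spread and changed only promoters above a minimum level, so recovery in the real data may be lower. The absence of calls thus does not show that the changes were equal.

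**Figure D5:**
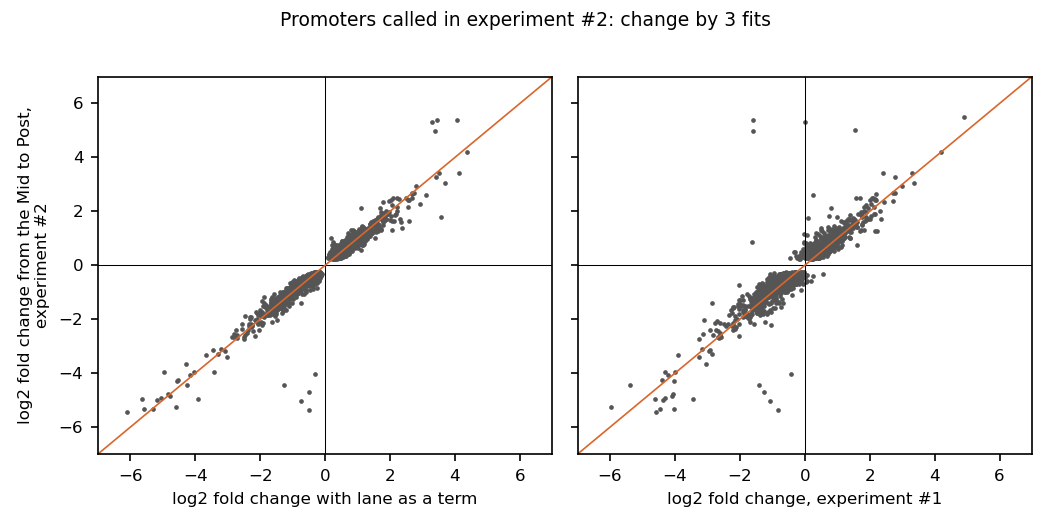
Log2 fold change from the Mid to Post in experiment #2 (y axis) of the called promoters with a mean of at least 1 CPM (1770 plotted, 3 of them outside a panel), against the value with lane as a term (left) and against experiment #1 (right), with the line of equality. Most points follow the line, and a few far from 0 on the y axis lie near 0 on the x axes.

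After feeding, few promoters were away from the Pre level. In the Post against the Pre libraries, 3 promoters were higher (0.0277%) and 9 lower (0.0832%), with 2 Pre libraries and with lane and group that cannot be told apart. The counts were 0 to 1 and 0 to 4 as each library was left out, and 45 and 71 with the likelihood ratio test. *Nr1d1* was higher after feeding (log2 fold change 1.76, FDR = 0.0227) and *Pdk4* lower (-1.37, FDR = 0.0354). *Arhgef2*, a guanine nucleotide exchange factor gene, was also higher, and *Mrln*, the gene of the calcium pump inhibitor myoregulin, *Lrrc52*, *Clec16a* and *Khdrbs3* were lower, with 5 clusters not at the start of a gene. *Mrln* had 34.7 and 33.3 CPM in the Pre, between 19.7 and 27.6 CPM in the Mid and 15, 13.5 and 16.4 CPM in the Post libraries. A number this small from 2 Pre libraries does not show that the other promoters were back at the Pre level.

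Clusters away from annotated starts changed too. Of 1201 tested clusters with no annotated gene start within 500 bases on their strand, 64 rose and 97 fell (13.4% called, against 16.4% of all). Clusters in introns on the strand of the gene were called most often (19 rose and 34 fell of 231, 22.9%), those in exons least (19 and 36 of 569, 9.67%), with 12 and 14 of 155 opposite to a gene and 14 and 13 of 246 outside genes. The body of *Pdk4* held 7 called clusters, all of which fell, by between 3.97 and 5.32 against 4.99 for its main promoter. Of 80 called clusters inside a gene with a promoter cluster of its own, the main promoter was called in the same direction for 38, in the opposite direction for 5 and not called for 37. Whether clusters inside the body of a gene mark starts of transcription was not tested. An intronic cluster of *Adprhl1*, a heart and muscle gene of the ADP-ribosylhydrolase family (chr8:13227825-13227998, minus strand), had 71.3, 13, 16.4, 26.1 and 13.5 CPM in the Mid and 0.938, 1.13 and 0.626 CPM in the Post libraries (log2 fold change -4.94 ± 0.75 (SE), FDR = 0.00142), whereas the main promoter of this gene had a log2 fold change of -0.10 (FDR = 0.682). An intronic cluster of *Esrrg* (chr1:187919140-187919855, plus strand), the gene of an estrogen-related receptor, fell from 84.9, 65.1, 55.3, 61.5 and 71.1 CPM to 20.1, 29.95 and 21.9 CPM (log2 fold change -1.50, FDR = 0.000203).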

How the data were processed

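Soleus RNA of the second set of mice was measured by nAnT-iCAGE, a CAGE method without amplification, in 5 Mid, 3 Post and 2 Pre libraries. Per the labels and the methods of the study, the authors aligned trimmed reads to the mm10 genome with BWA and HISAT2, and PromoterPipeline then formed promoter clusters. The deposited counts are tags per cluster and library without normalization, and the TPM values deposited by the authors, the same tags per 1000000 tags of the library, were used only to derive library totals. Clusters held 93.1 to 94.3% of each total. No column of the table was without a sample.

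Groups came from the titles and run labels. Each of 10819 clusters was given the gene whose GENCODE M21 start on the same strand was nearest to its highest peak, within 500 bases, which left 1204 without a gene. 261 clusters had starts of several genes within that distance. Coordinates count from 1. Counts were fitted with edgeR 4.0.16 (R 4.3.3) over the 10816 clusters with any tag in the 10 libraries, with group as the only term, TMM scaling and the quasi-likelihood F test. FDRs are Benjamini-Hochberg values over all of these clusters. The median SE of a log2 fold change was 0.13, and the common dispersion was 0.0391. Libraries of a group differed beyond sampling noise in all 14 pairs, with a chi-square per promoter of at least 12.4. Each mouse is 1 replicate. Unequal promoter use was tested with diffSpliceDGE, and ratios of promoters by exact permutation. The scripts were tested on simulated counts. Alternatives were DESeq2 1.42.0, the likelihood ratio test, other scalings and filters, the lane, other sets of libraries and each library left out.

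The members, the gene lists and the tests were chosen with earlier results of these data known. A gene is represented by its promoter with the highest mean. The genes named were the 12 protein-coding genes with the largest change in each direction whose groups did not overlap and whose mean was at least 1 CPM, up to 5 members of each list with the smallest FDR, the 3 genes with the smallest p of the difference between experiments, and the 8 in each direction with the smallest FDR with lane as a term. Other list members, second promoters, intronic clusters, pseudogenes, promoters away from the Pre level and the sequences shown were chosen after their values were seen. RefSeq promoter windows (GRCm38.p6) run from 250 bases before to 50 after a gene start. *Bhlhe40*, *Hmox1*, *Angptl4* and *Slc39a14* were not matched to them. Some genes that these rules name are not reported here.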

Additional observations from a re-analysis of the deposited data

Results flagged for a closer look

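A Mid library lay far from the other 4 (Dixon's test at the 95% level) for 12 of 135 values examined, and chance gives about 1 in 20. Over all promoters with a mean of at least 1 CPM, 758 of 10721 (7.07%) had such a library, most often Mid 11 as the highest (203), then Mid 9 (121), Mid 13 (94) and Mid 10 (90).

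Mid 11 was the high library for the histone genes *Hist1h2ab* (97.3 CPM) and *Hist1h3b* (68.6 CPM), for the red cell gene *Slc4a1* (17.2 CPM), for the sums of neutrophil genes (17.1 CPM) and of cell division genes (44.6 CPM), and for *Angptl8* (0.514 CPM, a few tags). Mid 10 was the high library for the lipid synthesis genes *Fasn* (47.5 CPM) and *Pnpla3* (12.9 CPM) and for the upstream promoter of *Acaca* (4.25 CPM). Mid 13 was the high library for *Acss2* (95.9 CPM) and *Txnip* (615 CPM), and Mid 9 for *Pde4d* (148 CPM). What sets these libraries apart was not tested.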

How the results depend on the processing

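The count of 836 rises and 936 falls lay between 538 and 854 rises and between 652 and 995 falls as each library was left out, the lowest without Post 7 (538 and 652). It was 148 and 337 with lane as a term and 52 and 136 within lane 4, where 1 Mid and 3 Post libraries remain and the lone Mid library is assumed to vary like the other groups. It was within 1.5 times the main count under DESeq2, the likelihood ratio test, every scaling, the filter, the Mid and Post libraries alone and those of both experiments. Of 125 promoters examined, 45 were no longer called with lane as a term and 62 within lane 4, against 2 to 13 as single libraries were left out. The lane term was called for 8 and 1 promoters with the likelihood ratio test. Post against Pre gave 45 and 71 with the likelihood ratio test, and 0 to 1 and 0 to 4 as each library was left out.

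The only examined promoters to change sign had not been called. The downstream promoter of *Ppargc1a* went to 0.046 without scaling factors, 0.012 with upper-quartile scaling and 0.19 without Mid 10 and Mid 11, and lay between -0.23 and 0.17 as each library was left out. The upstream promoter of *Srebf1* went to 0.066 and 0.031 with those scalings, and lay between -0.099 and 0.032 as each library was left out. The main promoter of *Hdac4* went to -0.0091 with lane as a term. The medians of the glucose, insulin and collagen lists also changed sign, between -0.12 and 0.047, between -0.087 and 0.13 and between -0.54 and 0.28.

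Each library came from a different mouse, so the Mid and Post libraries are not pairs, and in experiment #2 they share no replicate number. The number is part of the title and does not mark the same mouse. In experiment #1 a fit with the number as a term (the replicate block) gave 787 rises and 1024 falls. It used the libraries whose number occurs in both groups, which gave 1456 and 1523 without the block. Over all its libraries, experiment #1 gave 1881 rises and 1890 falls, and 808 and 822 without scaling factors, where the cause was not tested. Deviations of libraries with the same number correlated between -0.27 and 0.13, and none correlated best with its own number. For Post against Pre the replicate block gave 0 and 0, against 4 and 19 over the same libraries without it. With 2 libraries in each group, the deviations from the group mean mirror each other. Both correlations of libraries with the same number were thus bound to be equal (0.043), and they cannot show a pairing.

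Promoters of a few tags per library, such as *Angptl8* in the Mid group, are at the limit of the depth. The comparison has 3 Post mice, and lane, food and recovery cannot be told apart within it.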
